A study of Mus musculus with 12 samples.

Results

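Analgesic inhibitory receptors of sensory neurons were followed in mouse dorsal root ganglia after nerve injury. They are 9 genes chosen by symbol among the 24060 gene entries of the deposited tables: 4 opioid receptor genes (Oprm1, Oprd1, Oprk1 and Oprl1), the cannabinoid receptor gene Cnr1, 2 alpha2 adrenergic receptor genes (Adra2a and Adra2c) and the 2 subunit genes of the GABA-B receptor (Gabbr1 and Gabbr2). RNA-seq compared ganglia of C57BL/6J mice, all adult males 9 to 10 weeks old, at 1, 3 and 7 days after spared nerve injury and in naive mice, with 3 libraries in each of the 4 groups. In spared nerve injury the sciatic nerve loses its tibial and common peroneal branches, which are tied and cut, and keeps the sural one, so a ganglion can hold injured and uninjured neurons side by side. No sham-operated group was analysed here, and the labels give neither the ganglia taken nor say if animals were pooled, so that each p-value rests on the spread among libraries, which may be technical.

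These receptors share a way of working. Each couples to inhibitory G proteins of the Gi and Go kind, which lower cyclic AMP, close voltage-gated calcium channels at the terminal and open potassium channels of the Kir3 family, so that a sensory neuron releases less transmitter and fires less readily. Opioids, cannabinoids, clonidine and baclofen all act through members of the group, and the receptors are made in the cell bodies of the ganglion and carried along the axon to both its ends. GABA-B works only as a pair, with Gabbr1 binding the ligand and Gabbr2 bringing the complex to the surface and activating the G protein.

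In mm10 coordinates from GENCODE M21, all 9 receptor genes are protein-coding, and the tables give 1 value per gene and library. Oprm1 lies at chr10:6758506-7038198, Oprk1 at chr1:5588466-5606131 and Oprl1 at chr2:181715016-181720985, all on the plus strand. Oprd1 lies at chr4:132110726-132144486 and Gabbr2 at chr4:46662305-46991873, both on the minus strand of the chromosome that also carries Cnr1 at chr4:33924593-33948831 on its plus strand. Adra2a lies at chr19:54044151-54048982, Adra2c at chr5:35278319-35281763 and Gabbr1 at chr17:37045966-37075067, all on the plus strand.

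The promoters of Oprd1 and Cnr1, which fell after injury, and of Gabbr1, which was not called, are shown so that receptors with different courses can be read side by side. Each is the 250 bases before the RefSeq transcription start in GRCm38.p6. Capitals mark the Sp1 box GGGCGG or its reverse complement, read on either strand.
Oprd1, chr4:132144487-132144736, minus strand: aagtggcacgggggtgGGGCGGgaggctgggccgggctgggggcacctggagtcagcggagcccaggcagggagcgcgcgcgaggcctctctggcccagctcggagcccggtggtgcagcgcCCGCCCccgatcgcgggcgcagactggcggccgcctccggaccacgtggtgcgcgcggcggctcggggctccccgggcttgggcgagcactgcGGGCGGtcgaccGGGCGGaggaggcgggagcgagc
Cnr1, chr4:33924014-33924263, plus strand: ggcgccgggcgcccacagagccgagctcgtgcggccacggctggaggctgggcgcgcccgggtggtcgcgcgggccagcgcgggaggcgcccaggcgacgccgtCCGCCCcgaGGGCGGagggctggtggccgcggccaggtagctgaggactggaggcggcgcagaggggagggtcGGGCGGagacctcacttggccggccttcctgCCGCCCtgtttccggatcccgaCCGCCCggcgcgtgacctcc
Gabbr1, chr17:37045716-37045965, plus strand: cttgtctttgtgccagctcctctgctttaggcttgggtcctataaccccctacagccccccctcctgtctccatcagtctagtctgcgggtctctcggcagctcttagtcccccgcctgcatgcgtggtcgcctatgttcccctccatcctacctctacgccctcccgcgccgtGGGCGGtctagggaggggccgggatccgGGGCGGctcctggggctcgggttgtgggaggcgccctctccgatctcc
The Oprd1 window held 4 Sp1 boxes, this Cnr1 window 5 and the Gabbr1 window 2, and their GC content was 80.0%, 79.2% and 66.0%. RefSeq windows were found for 8 of the 9 genes, 14 windows in all, and an Sp1 box stood in 5 of the 14 windows (35.7%), among them those of Adra2a and Gabbr2, close to the 32.7% of all 32851 mouse promoter windows. The AP-1 letters TGANTCA, present in 6.75% of all windows, and the CRE letters TGACGTCA, present in 1.55%, stood in none of the 14. Sp1 boxes thus stood in windows of genes that fell and of genes that were not called. No window of Oprm1, which fell at day 3, held one, and neither did the other Cnr1 windows. The Cnr1 window shown ends at 33924263, ahead of the GENCODE M21 gene start at 33924593. The bases after its RefSeq start were not found in the M21 transcripts of Cnr1.

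Library sizes recovered from the values ran from 13627000 to 17953000 reads. Levels are in RPKM, reads scaled by gene length and library size. Fold changes were taken from log2(RPKM + 0.5), and this makes the changes of low genes look smaller. A gene was called at an adjusted p below 0.05 in limma across the 14195 genes with at least 1 RPKM in at least 3 libraries. Of the 9 receptors, 8 passed that filter and Adra2a did not. Pan-neuronal markers were abundant in all 4 groups, with the 14 genes summing to 1390 to 1800 RPKM in naive libraries, 1140 to 1730 RPKM at day 1, 1220 to 1620 RPKM at day 3 and 961 to 1520 RPKM at day 7. Of 10 tested macrophage markers, 5 rose at day 3 and 5 at day 7, where 3.72% and 2.32% of all tested genes were called higher. Skeletal muscle transcripts stood out in naive replicate 1 and day 7 replicate 2, where the fast myosin gene Myh4 reached 9.75 and 10.3 RPKM against at most 2.59 RPKM elsewhere.

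In naive ganglia the receptors spanned a wide range of level. Oprm1, the mu opioid receptor and main target of morphine, was highest at 39.7 ± 4.36 RPKM (SD, n = 3), rank 1133 of 24058 distinct symbols, and overlapped with Gabbr2 at 37.5 ± 2.15 RPKM. Gabbr1 followed at 33.9 ± 0.938 RPKM and Cnr1, the CB1 receptor, at 13.8 ± 0.529 RPKM, each apart from its neighbours in all libraries. Below these came Oprd1, the delta opioid receptor, at 3.58 ± 0.712 RPKM and Oprl1, the nociceptin receptor, at 1.97 ± 0.17 RPKM. Oprk1, the kappa opioid receptor, at 1.46 ± 0.231 RPKM and Adra2c, the alpha-2C adrenergic receptor, at 1.29 ± 0.378 RPKM overlapped with each other. Adra2a, the alpha-2A receptor, was lowest at 0.332 ± 0.0682 RPKM, or 15 to 26 reads per library. The order depends on the gene lengths the authors used: the values of Oprm1 imply a length of 2639 bases, against 8037 exon bases in GENCODE M21, while those of Oprd1 imply the annotated 4021 bases.

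**Figure D1:**
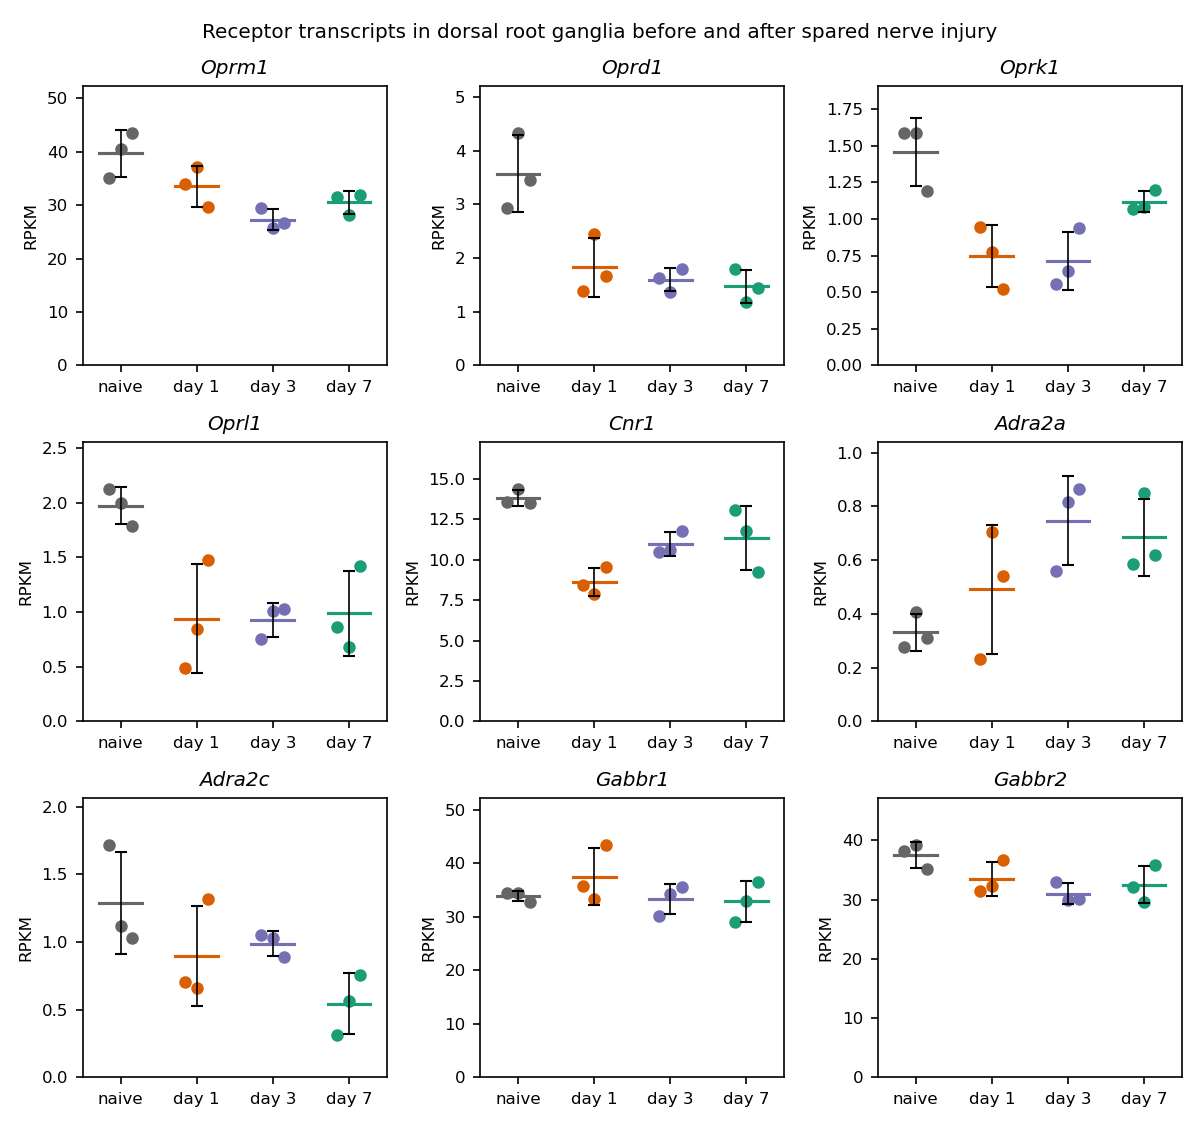
RPKM of each receptor gene in the 12 libraries, 1 panel a gene, with naive and days 1, 3 and 7 after injury along the x axis; points are libraries and bars are the mean ± SD of 3 libraries. Oprd1, Oprl1 and Cnr1 lie below every naive library in all 9 injured libraries, while the 2 GABA-B subunits stay between 29.1 and 43.5 RPKM throughout.

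Across time, the receptors were mostly lower after injury. Oprd1 fell at days 3 and 7, Oprm1 fell at day 3 and Cnr1 fell at day 1, while neither GABA-B subunit was called at any day. No receptor was called higher, against 2.6%, 3.72% and 2.32% of all tested genes at days 1, 3 and 7. Of the 8 tested, 1 was called at day 1, 2 at day 3 and 1 at day 7, where 3.43%, 5.67% and 2.92% of all tested genes were called either way, and 0.831%, 1.95% and 0.599% were called lower. The median log2 fold change of the 8 was -0.51, -0.46 and -0.35 at days 1, 3 and 7, against -0.01, 0 and 0 over all tested genes. All 3 injured libraries lay below all 3 naive libraries for 4, 6 and 5 of the 8 receptors, against 11.7%, 12.7% and 7.13% of all tested genes. The 3 comparisons share the naive libraries. In these whole ganglia, fewer cells of a type and less RNA per cell cannot be told apart.

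Oprd1, whose activation dampens mechanical pain, showed the largest decrease among the receptors at day 7. It stood at 2.93, 4.34 and 3.46 RPKM in naive libraries, 1.39, 2.45 and 1.66 RPKM at day 1, 1.63, 1.37 and 1.8 RPKM at day 3 and 1.8, 1.18 and 1.44 RPKM at day 7. All 9 injured libraries were below all 3 naive ones, from 79 to 144 reads against 169 to 293 reads. The log2 fold change was -0.81 (SE 0.23, adjusted p = 0.0786) at day 1, -0.97 (SE 0.23, adjusted p = 0.0229) at day 3 and -1.06 (SE 0.23, adjusted p = 0.0208) at day 7, when the mean was 41.2% of naive. It was also the sole receptor called over the 4 groups together (adjusted p = 0.0378), where 4.78% of tested genes were called. That call ended with no filter (0.0638), with replicate number as a block (0.0808), with neuronal scaling (0.254) and without both libraries with muscle transcripts (0.0808). Without a single library it ended for all but day 1 replicate 2 (0.0219) and day 7 replicate 1 (0.0177), with an adjusted p of 0.0531 to 0.222 without each of the others. The day 3 call ended without naive replicate 2 (adjusted p = 0.12) or 3 (0.0767) or without day 3 replicate 1 (0.0553), 2 (0.102) or 3 (0.0509). The day 7 call ended without naive replicate 2 (0.113) or 3 (0.078) or day 7 replicate 2 (0.0944) or 3 (0.0797), and without both libraries with muscle transcripts (0.0939). When libraries were scaled to the neuronal markers, the log2 fold change was -0.95 at day 3 and -0.93 at day 7, with an adjusted p of 0.12 and 0.16. At day 1 Oprd1 was called without day 1 replicate 2 (0.0378) and with voom weights on recovered reads (0.014).

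Oprm1 had the highest level of the opioid receptors in every library. It stood at 35, 40.6 and 43.6 RPKM in naive libraries, 33.9, 37.2 and 29.6 RPKM at day 1, 29.5, 25.7 and 26.6 RPKM at day 3 and 31.5, 28.1 and 32 RPKM at day 7. The day 1 libraries overlapped with naive, while those of days 3 and 7 lay below. Oprm1 fell at day 3 by 0.56 on the log2 scale (SE 0.15, adjusted p = 0.042), to 68.5% of the naive mean, and was not called at day 1 (-0.23, adjusted p = 0.525) or day 7 (-0.40, adjusted p = 0.235). The day 3 call ended without naive replicate 2 (0.147) or 3 (0.186), day 1 replicate 1 (0.0634), day 3 replicate 2 (0.165) or 3 (0.132) or day 7 replicate 3 (0.0508), and with no expression filter (0.0641) or neuronal scaling (0.303), where the log2 fold change was -0.57 and -0.54. In GENCODE M21, 96 bases of Oprm1 exons (1.19%) lie opposite the gene Ipcef1, and strandedness of the libraries is not stated.

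Oprk1 and Oprl1 were low and lay lower after injury without being called. Oprk1 stood at 1.59, 1.59 and 1.19 RPKM in naive libraries, 0.946, 0.772 and 0.521 RPKM at day 1, 0.557, 0.645 and 0.938 RPKM at day 3 and 1.07, 1.08 and 1.2 RPKM at day 7. Its day 1 and day 3 libraries were apart from naive, while 1 library of day 7 reached into the naive range. The log2 fold changes were -0.65 (adjusted p = 0.158), -0.72 (0.0834) and -0.29 (0.691). Oprl1 stood at 2.13, 2 and 1.79 RPKM in naive libraries, 0.492, 0.848 and 1.48 RPKM at day 1, 0.753, 1.01 and 1.03 RPKM at day 3 and 0.86, 0.683 and 1.42 RPKM at day 7. All 9 injured libraries were below naive, with the widest spread at day 1. Its log2 fold changes were -0.84 (adjusted p = 0.0967), -0.81 (0.0797) and -0.78 (0.14). Oprl1 was called at day 1 without day 1 replicate 3 (0.0455) and at day 3 when those 2 groups alone were fitted (0.0245). On reads recovered from the RPKM values, limma with voom weights called 4 receptors lower at day 1, 4 at day 3 and 3 at day 7. Of all tested genes it called 1.29%, 3.11% and 1.16% lower, and 4.39%, 7.45% and 3.9% either way. The receptor calls included Oprk1 at days 1 and 3 (adjusted p = 0.0329 and 0.0176) and Oprl1 at days 1, 3 and 7 (0.0336, 0.0274 and 0.0405).

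The 4 opioid receptor genes summed to 46.7 ± 4.46 RPKM in naive libraries, 37.1 ± 4.03 at day 1, 30.5 ± 1.86 at day 3 and 34.1 ± 2.66 at day 7 (SD, n = 3). Oprm1 made up 85.0 ± 1.91% of that sum in naive ganglia, 90.5 ± 1.68% at day 1, 89.3 ± 1.69% at day 3 and 89.6 ± 0.9% at day 7. The shares of injured libraries, from 87.6% to 92.3%, all lay above the highest naive share of 87.1%. The Oprd1 share was 7.63 ± 1.14% in naive ganglia and 4.91 ± 1.08%, 5.24 ± 0.613% and 4.31 ± 0.71% at days 1, 3 and 7. These sums and shares depend on the gene lengths in the values. For Oprm1 that length is 2639 bases, against 8037 exon bases in GENCODE M21, and for Oprd1 it is the annotated 4021 bases.

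Cnr1, which mediates peripheral relief by cannabinoids, was lowest at day 1. It stood at 13.6, 14.4 and 13.5 RPKM in naive libraries, 8.42, 7.86 and 9.55 RPKM at day 1, 10.5, 10.6 and 11.8 RPKM at day 3 and 13.1, 11.8 and 9.21 RPKM at day 7. All 9 injured libraries lay below naive, and day 3 lay above day 1 in all libraries, as for 8.64% of all tested genes. Together with Oprd1 and Oprl1 this makes 3 of the 8 tested receptors with all 9 injured libraries under all naive ones, against 3.24% of all tested genes. Cnr1 fell at day 1 by 0.65 on the log2 scale (SE 0.16, adjusted p = 0.0326), to 62.3% of the naive mean, and was not called at day 3 (-0.35, adjusted p = 0.244) or day 7 (-0.31, adjusted p = 0.434). The day 1 call ended when any of the naive libraries (adjusted p 0.0636, 0.129 and 0.107 without replicates 1, 2 and 3) or day 1 libraries (0.119, 0.0947 and 0.0651) was left out. It also ended without the libraries with muscle transcripts (0.0826), with no filter (0.0583) and with neuronal scaling (0.219), where the log2 fold change was -0.70, -0.65 and -0.62.

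Both adrenergic genes were low. In the main fit Adra2c was not called at any day, and Adra2a did not pass the filter. Adra2c stood at 1.72, 1.12 and 1.03 RPKM in naive libraries, 0.706, 0.664 and 1.32 RPKM at day 1, 1.05, 1.03 and 0.886 RPKM at day 3 and 0.31, 0.566 and 0.757 RPKM at day 7. At day 7 all 3 libraries lay below naive, from 16 to 33 reads against 50 to 79 reads. Its log2 fold changes were -0.37 (adjusted p = 0.547), -0.26 (0.649) and -0.80 (0.112), and the voom test called it at day 7 (0.0396). Adra2a stood at 0.275, 0.408 and 0.312 RPKM in naive libraries, 0.231, 0.703 and 0.542 RPKM at day 1, 0.558, 0.815 and 0.866 RPKM at day 3 and 0.587, 0.848 and 0.618 RPKM at day 7. It was above the highest naive library in 8 of 9 injured libraries, on 32 to 57 reads each, against 15 to 26 reads in naive libraries. Day 1 replicate 1 lay below all naive libraries, on 14 reads. Fitted without the expression filter over 21597 genes, its log2 fold changes were 0.23 (SE 0.21, adjusted p = 0.756), 0.55 (0.214) and 0.48 (0.395), where 1.87%, 3.38% and 1.83% of genes were called.

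**Figure D2:**
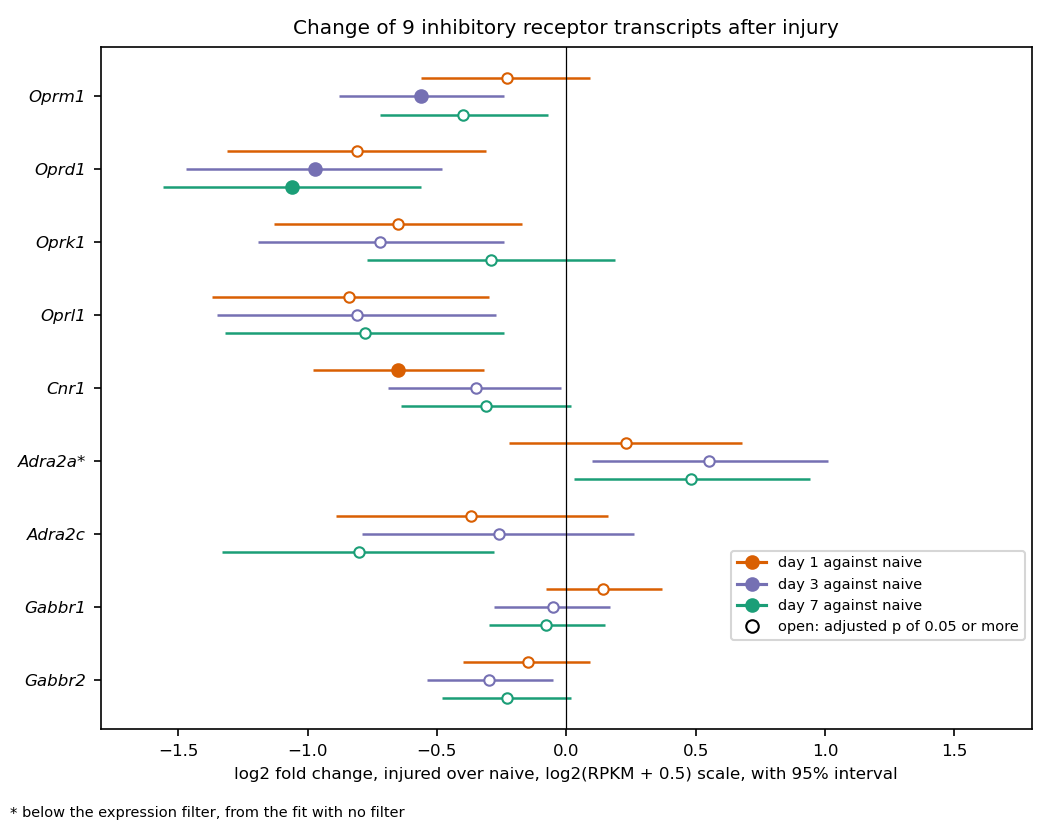
Log2 fold change of each receptor against naive at days 1, 3 and 7 on the log2(RPKM + 0.5) scale; lines are 95% intervals and open circles have an adjusted p of 0.05 or more, with Adra2a from the fit without a filter. Filled points are Cnr1 at day 1, Oprm1 at day 3 and Oprd1 at days 3 and 7.

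Neither GABA-B subunit was called, and both lay between 29.1 and 43.5 RPKM in all libraries. Gabbr1 stood at 34.4, 34.5 and 32.8 RPKM in naive libraries, 35.8, 33.3 and 43.5 RPKM at day 1, 30.2, 34.3 and 35.6 RPKM at day 3 and 29.1, 32.9 and 36.6 RPKM at day 7. Its injured libraries lay on both sides of naive, and the 95% intervals of its log2 fold change were -0.08 to 0.37, -0.28 to 0.17 and -0.3 to 0.15. Gabbr2 stood at 38.2, 39.3 and 35.1 RPKM in naive libraries, 31.5, 32.3 and 36.7 RPKM at day 1, 33, 29.9 and 30.1 RPKM at day 3 and 32.1, 29.6 and 35.9 RPKM at day 7. It lay below all naive libraries in 7 of 9 injured libraries, with log2 fold changes of -0.15 (adjusted p = 0.6), -0.30 (0.17) and -0.23 (0.434). The 95% intervals of Gabbr2 were -0.4 to 0.09, -0.54 to -0.05 and -0.48 to 0.02, and at day 3, when all 3 libraries lay below naive, it was called with array weights (0.0385). The ratio of Gabbr1 to Gabbr2 within a library was 0.9, 0.88 and 0.935 in naive libraries, 1.14, 1.03 and 1.18 at day 1, 0.913, 1.15 and 1.18 at day 3 and 0.907, 1.11 and 1.02 at day 7. At day 1 all 3 ratios were above naive, by 0.30 on the log2 scale (exact two-sided permutation p = 0.1, the smallest that 3 against 3 can give), and the day 3 and day 7 ratios overlapped with naive (differences 0.24 and 0.15, exact p = 0.2 each).

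**Figure D3:**
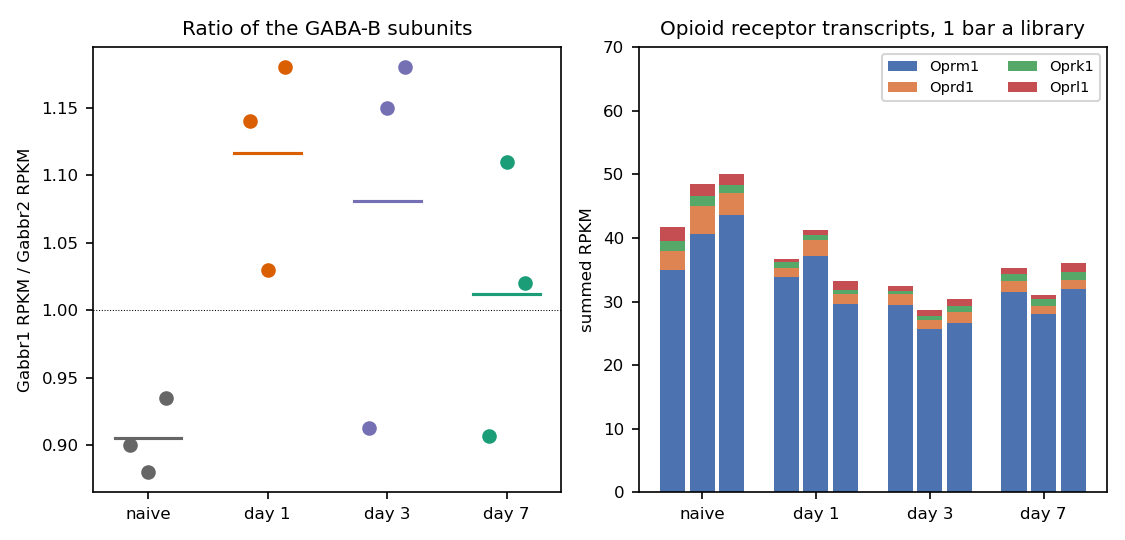
Ratio of Gabbr1 to Gabbr2 RPKM in each library and summed RPKM of the 4 opioid receptor genes, by group from naive to day 7; on the left, points are libraries, short lines are means, the dotted line is a ratio of 1 and the axis does not start at 0, and on the right each stacked bar is a library. The 3 day 1 ratios (1.03 to 1.18) lie above the naive ones (0.88 to 0.935), and the opioid sum is lowest at day 3 at 30.5 RPKM.

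Between days, no receptor was called: limma called 0 of 8 for day 3 against day 1, day 7 against day 1 and day 7 against day 3, where 0.507%, 0.972% and 0% of tested genes were called. At an unadjusted p below 0.05 there was 1 receptor of 8 in each of these, where 9.42%, 10.4% and 5.04% of all tested genes were, and voom called 0 in each, where it called 1.04%, 1.7% and 0% of tested genes. They were Oprm1, lower at day 3 than at day 1, Cnr1, higher at day 7 than at day 1, and Adra2c, lower at day 7 than at day 3.

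Set against the mean log2 level of the 14 neuronal markers in the same library, 4 of the 8 tested receptors lay below naive in all day 1 libraries (Oprk1, Oprl1, Cnr1 and Adra2c), against 5.73% of all tested genes. At day 3 these were Oprd1, Oprk1 and Oprl1, against 7.97% of all tested genes, and at day 7 they were Oprl1 and Adra2c, against 1.99%. Gabbr1 lay above naive in all day 1 libraries (difference 0.17). Adra2a, which did not pass the filter, lay above naive in all libraries of days 3 and 7 (0.57 and 0.62). The share of all tested genes that lay above is not given here. Leaving out a library can only keep or raise a count of receptors below naive, as for any gene. The share of all tested genes is not given for such counts, so they cannot be set against the shares above. At day 3, 6 lay below without naive replicate 1 and 7 without day 3 replicate 1, and 6 at day 7 without day 7 replicate 1. At day 1 leaving out day 1 replicate 2 gave 6, and at day 7 leaving out naive replicate 1 gave 3. The median log2 fold change of the neuronal markers themselves was -0.07, -0.10 and -0.17 at days 1, 3 and 7, with members on both sides. Elavl3, a neuronal RNA-binding protein, rose at days 1 and 3 by 0.48 and 0.54 (adjusted p = 0.0217 and 0.00661), while Snap25, a synaptic vesicle fusion protein, stood at -0.59 at day 7 (adjusted p = 0.0985). Glul, a glutamine synthetase of satellite glia, rose at days 1 and 3 by 0.66 and 0.78 (adjusted p = 0.0388 and 0.0105). It was the only 1 of 7 satellite glia markers called, where 2.6% and 3.72% of all tested genes were called higher. The median log2 fold change of the 7 was 0.01 and 0.03, with members on both sides. The macrophage marker sum was 70.2 to 116 RPKM at day 3 and 72.2 to 142 RPKM at day 7, against 38.8 to 53.9 RPKM in naive libraries. Their part in the receptor values was not tested.

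As a description over 12 libraries that share depth and preparation, the genes whose log2 levels ran closest to each called receptor were found among 8904 or 8905 genes above a mean log2 of 2. For Oprm1 they were Ralgapa2 (Pearson r 0.984), Cdk7 (0.96) and Prkce (0.956). For Oprd1 they were Satb1 (0.961), Nwd2 (0.938) and Herc3 (0.938), and for Cnr1 Lrrc4c (0.953), Gdap1 (0.931) and Smc3 (0.92).

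Around the receptors, 14 lists covered ligand, G protein, effector and regulator genes, and 1 of them held 27 other inhibitory receptors (17 tested). In all, the lists held 144 gene symbols, of which 111 were tested. Of those, 5 were called at day 1, 13 at day 3 and 5 at day 7 (4.5%, 11.7% and 4.5%), which makes 23 calls, where 3.43%, 5.67% and 2.92% of all tested genes were called. Of these 23, 15 ended without the 2 libraries with muscle transcripts and 16 when libraries were scaled to the neuronal markers. In the comparisons of single days with naive, no gene was called in the lists of opioid peptides, endocannabinoid enzymes, GABA supply, noradrenaline supply, G protein beta and gamma subunits, adenylate cyclases or transcriptional silencers. An unadjusted p below 0.05 was found for 14.9%, 17.8% and 12.9% of all tested genes at days 1, 3 and 7. On the same days, such a p was held by 0, 0 and 0 of 1 tested opioid peptide and 0, 3 and 0 of 10 endocannabinoid genes. The counts were 1, 0 and 0 of 3 GABA supply genes, 1, 2 and 3 of 3 noradrenaline supply genes and 0, 1 and 1 of 13 G protein subunits. They were 1, 3 and 2 of 9 cyclases and 1, 0 and 0 of 11 silencers. In the test over the 4 groups together Gng2, a G protein gamma subunit that lies outside the rule for named genes and was chosen after its values were seen, was called (adjusted p = 0.0314). With voom, 1 of 9 tested cyclases was called lower at day 3 and 1 higher at day 7, and no gene in the other 6 lists. Voom called 7.45% and 3.9% of all tested genes either way on those days. Penk, the enkephalin precursor and the only opioid peptide gene tested, stood at 2.5 ± 1.35 RPKM at day 3 and 1.15 ± 0.234 RPKM in naive libraries (SD, n = 3 each, adjusted p = 0.311).

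Regulators that end receptor signalling moved in both directions. For the list genes, the settings named as ending a call are mainly single libraries left out, and others are not all given. Rgs20, which speeds the shut-off of Gi proteins, rose at days 1, 3 and 7 with log2 fold changes of 1.1 (SE 0.16, adjusted p = 0.00137), 1.0 (0.00178) and 0.77 (0.0179), with means of 6.35, 6.05 and 5.08 RPKM against 2.71 RPKM in naive ganglia. Its day 7 call ended without naive replicate 1 (0.0864) or 2 (0.0506), day 7 replicate 1 (0.0546) or 2 (0.0759) and without both libraries with muscle transcripts (0.235). That call also ended with only the 2 groups fitted (0.0973). Arrb1, an arrestin that uncouples receptors, rose by 0.51, 0.68 and 0.44 (adjusted p = 0.023, 0.00211 and 0.0496), with means of 66.0, 76.2 and 64.6 RPKM against 46.5 RPKM in naive ganglia. Its day 3 call held without each library in turn and ended with neuronal scaling (log2 fold change 0.70, adjusted p = 0.0537), whereas the day 1 call ended without naive replicate 1 (0.0988), 2 (0.0584) or 3 (0.0673) or day 1 replicate 1 (0.13) or 2 (0.0599), and the day 7 call without any single library (0.0506 to 0.182). Neuronal scaling also ended the Arrb1 calls at days 1 and 7 (0.241 and 0.14). So did leaving out both libraries with muscle transcripts (0.125 and 0.3). Rgs6 fell at days 3 and 7, by 0.58 and 0.76 on the log2 scale (adjusted p = 0.0159 and 0.00406), and the day 7 call held without each library and ended with neuronal scaling (-0.62, adjusted p = 0.0649). The day 3 call of Rgs6 ended without naive replicate 1 (0.0553) or 2 (0.0781) or day 3 replicate 1 (0.0583). Rgs7bp, an anchor of RGS complexes, fell by 0.70 at day 3 (adjusted p = 0.0212), a call that ended without naive replicate 2 (0.0967) or 3 (0.0793) or day 3 replicate 2 (0.0933) or 3 (0.0685). With neuronal scaling the day 3 calls of Rgs7bp (0.179) and Rgs6 (0.0884) ended as well.

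Among coupling and effector genes, Kcnj3, a Kir3 channel subunit opened by these receptors, fell at days 1 and 3 by 0.91 and 0.72 (adjusted p = 0.0169 and 0.0423), with 5.19 ± 1.62 and 6.0 ± 0.341 RPKM against 10.0 ± 0.409 RPKM in naive ganglia. The day 1 call ended without naive replicate 1 (0.0528), 2 (0.0584) or 3 (0.0727) or day 1 replicate 1 (0.0993) or 3 (0.0731), and the day 3 call without any of the naive libraries (0.0891 to 0.141), any of day 3 (0.0674 to 0.14), day 1 replicate 1 (0.0528) or day 7 replicate 3 (0.0516). Gnai1, a Gi alpha subunit, fell by 0.49 at day 1 (adjusted p = 0.0368), a call that ended without any naive library (0.0891 to 0.139), any day 1 library (0.0863 to 0.118) or day 3 replicate 2 (0.052) or 3 (0.0574). Kctd16, an auxiliary subunit of GABA-B, fell by 0.64 at day 3 (adjusted p = 0.0177), which ended without naive replicate 1 (0.0581) or 3 (0.0746) or day 3 replicate 1 (0.0617) or 2 (0.0966). Gprasp1 and Gprasp2, which sort opioid receptors for breakdown, fell at day 3 by 0.42 and 0.68 (adjusted p = 0.0365 and 0.0384). The Gprasp1 call ended without any naive (0.0666 to 0.141) or day 3 library (0.0791 to 0.143) or day 1 replicate 1 (0.0618), and the Gprasp2 call without any naive library (0.0969 to 0.113), day 1 replicate 1 (0.0573) or day 3 replicate 1 (0.141) or 2 (0.109). Flna, a scaffold of the mu receptor, rose by 0.50 at day 3 and 0.51 at day 7 (adjusted p = 0.0327 and 0.0482). The day 3 call of Flna ended without any naive (0.0574 to 0.128) or day 3 library (0.0524 to 0.127), and the day 7 call without any library but day 7 replicate 2 (0.0501 to 0.189). Neuronal scaling ended the calls of Kcnj3 at days 1 and 3 (0.148 and 0.222), Gnai1 (0.214) and Kctd16 (0.166). It also ended those of Gprasp1 (0.29) and of Flna at days 3 and 7 (0.184 and 0.0993).

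The 27 other receptors that couple to inhibitory G proteins form 1 of the 14 lists. Of these 27, 17 were tested and 5 were called at 1 or more days, where 7.05% of all tested genes were. Npy1r, a neuropeptide Y receptor, rose at day 1 by 0.80 (SE 0.12, adjusted p = 0.00177), to 21.2 ± 2.56 RPKM against 12.1 ± 1.56 RPKM in naive ganglia, a call that held without each library. It also rose at day 3 by 0.48 (adjusted p = 0.033), which ended without naive replicate 2 (0.163) or 3 (0.0946) or day 3 replicate 2 (0.149) or 3 (0.0911). Chrm2, the M2 muscarinic receptor, fell at day 3 by 1.18 (SE 0.22, adjusted p = 0.00497), to 2.96 ± 0.524 RPKM against 7.15 ± 0.574 RPKM in naive ganglia, and held without each library. Drd2, the D2 dopamine receptor, rose at day 7 by 1.02 (adjusted p = 0.0145), which ended without naive replicate 2 (0.0551) or 3 (0.0838) or day 7 replicate 2 (0.0609) or 3 (0.0552). Galr1, a galanin receptor, and Grm4, a glutamate receptor, fell at day 3 by 1.0 and 0.71 (adjusted p = 0.0411 and 0.0265). The Galr1 call ended without any naive (0.089 to 0.16) or day 3 library (0.0981 to 0.113) or day 7 replicate 2 (0.0522), and the Grm4 call without any naive (0.0519 to 0.0991) or day 3 library (0.0587 to 0.0877). Neuronal scaling ended the day 3 calls of Npy1r (0.0793), Galr1 (0.0815) and Grm4 (0.06). The Drd2 call also ended without both libraries with muscle transcripts (0.0891).

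**Figure D4:**
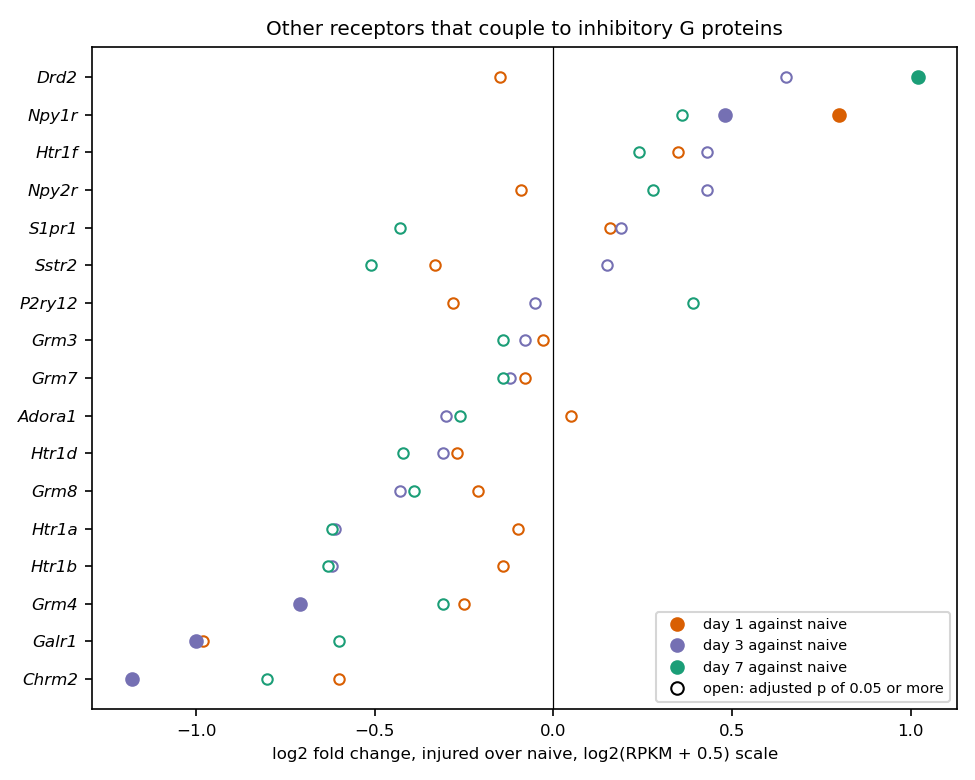
Log2 fold change against naive of the other inhibitory receptors in the list that passed the filter, 1 gene a line, at days 1, 3 and 7 on the log2(RPKM + 0.5) scale; filled points have an adjusted p below 0.05. Npy1r and Drd2 reach 0.80 at day 1 and 1.02 at day 7, while Chrm2 reaches -1.18 at day 3.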

How the data were processed

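RNA of mouse dorsal root ganglia was sequenced in 12 libraries. Trizol extraction, DNase treatment and amplification with a Nugen Ovation kit for 500 pg are given per the labels' protocols. The submitters' processing notes name mm10, STAR, HTSeq, limma, edgeR and bcl2fastq 2.17, with no stated role. The authors deposited RPKM values; the unit was inferred from the values, since whole reads could be recovered for 21597 of 21597 detected genes (100.0%, tolerance 0.05 reads), and amplified reads are not independent molecules.

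Genes with at least 1 RPKM in at least 3 libraries were kept (14195). Libraries were scaled by unweighted trimmed means (30% of log ratios, 5% of levels), and log2(RPKM + 0.5) was fitted with limma 3.58.1 in R 4.3.3 (trend and robust moderation, statmod 1.5.0), with 4 group means, 8 residual degrees of freedom and two-sided Benjamini-Hochberg adjusted p over all genes. The script was tested on simulated data. Alternatives were voom on recovered reads, other pseudocounts, filters, scalings, weights and left-out libraries. No 2 replicates agreed within sampling noise. Members and lists were chosen with earlier results of these data known; of each list, every called gene is named, up to 6, and for likeness the 3 nearest genes by Pearson r. Motifs were searched on both strands. Promoters are from RefSeq GRCm38.p6, and gene annotation is from GENCODE M21.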

Additional observations from a re-analysis of the deposited data

How the results depend on the processing

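The muscle libraries are naive replicate 1 and day 7 replicate 2. Counts of called receptors, 1 at day 1, 2 at day 3 and 1 at day 7, moved with the settings. At day 1 the count was 0 with no filter, the replicate block, neuronal scaling, a pseudocount of 0.1 without filter and without the muscle libraries, 2 with voom and no filter, 3 with array weights and 4 with voom. At day 3 it was 0 with neuronal scaling, 1 with no filter, a filter at 5 RPKM, the block or a pseudocount of 0.1 without filter, 3 with only the 2 groups fitted and 4 with array weights or voom. At day 7 it was 0 with a 5 RPKM filter, neuronal scaling or without the muscle libraries, 2 with array weights and 3 with voom. Over the 4 groups (1) it was 0 with no filter, the 5 RPKM filter, the block, neuronal scaling and without the muscle libraries, and 4 with array weights or voom. Leaving out each library gave 0 to 1, 0 to 2, 0 to 1 and 0 to 2. The main fit called 4.78% of all tested genes over the 4 groups. That share is not given here for the other settings, so their counts cannot be set against it.

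The list genes called (5, 13 and 5) numbered 3, 13, 2 and 2 at day 1 with the block, array weights, no muscle libraries and neuronal scaling. At day 3 they numbered 8 with no filter at either pseudocount, 24, 5 and 3 with array weights, no muscle libraries and neuronal scaling. At day 7 the list genes called numbered 3 with no filter, a filter at 5 or 0.5 RPKM, the block, neuronal scaling, voom without filter or a pseudocount of 0.1 without filter, 15 with array weights, 1 without the muscle libraries, 9 with voom and 2 with only the 2 groups fitted. Over all genes array weights called 831, voom 553 and no filter 395, against 415 in the main fit. The other settings are given over all genes only as a range. Leave-outs gave 2 to 5, 4 to 16 and 1 to 5. Receptors below naive relative to neuronal markers at day 3 were 6 without the muscle libraries, against 3, and leave-outs gave 4 to 6, 3 to 7 and 2 to 6. With libraries left out these counts can only stay or rise, and the matching shares of all tested genes are not given here. The ratio difference ranged over 0.26 to 0.35, 0.17 to 0.36 and 0.09 to 0.23. Of all genes, 487, 805 and 415 were called, leave-outs gave 218 to 618, 449 to 1085 and 235 to 519, and the other settings 258 to 1844, 450 to 1954 and 166 to 831.

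Gabbr1 at day 7 reversed to 0.06 under neuronal scaling, and Drd2 at day 1 to 0.15 under array weights. The cause was not tested. Same-numbered libraries did not deviate together (r -0.34 to 0.234, median -0.0414, 3 of 18 over 0.1, and 4 of 12 libraries closest to their own number), so the block is no paired test; with it, the calls of Cnr1 at day 1 (adjusted p = 0.0623) and Oprm1 at day 3 (0.076) and 8 of 23 list calls ended. Array weights added calls for Oprd1 and Oprl1 at day 1 (0.00204 and 0.00297), Oprl1 and Gabbr2 at day 3 (0.035 and 0.0385) and Oprm1 at day 7 (0.0204), while they raised the count over all genes to 1844, 1954 and 831. Adra2a was called under none of the settings run. The voom without filter, the 0.5 RPKM filter and the pseudocount of 0.1 without filter were chosen after seeing the data.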
